A study of Mus musculus with 4 samples.

Results

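The BCL2 family sets the threshold at which a T cell dies through its mitochondria, and 10 of its genes were followed here in induced regulatory T cells (induced Treg cells). They were taken by symbol from both deposited gene tables as 3 survival members or guardians (Bcl2, Bcl2l1, Mcl1), 2 effectors (Bax, Bak1) and 5 BH3-only genes (Bcl2l11, Bid, Bad, Bbc3, Pmaip1). All 10 were among the 22144 symbols kept from the tables, each with 1 row per table, and all 10 were among the 10603 symbols tested, those with a mean of at least 1 FPKM. FPKM values count fragments per kilobase of transcript, scaled to library size, so levels can be compared between genes.

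The effectors BAX and BAK open the outer mitochondrial membrane and release cytochrome c, which leads to caspase activation. Guardians hold effectors and BH3-only proteins in check, and BH3-only proteins, made or activated under stress or when growth signals are lost, neutralise the guardians or engage the effectors. In lymphocytes BIM, the product of Bcl2l11, is a principal trigger of death after cytokine withdrawal and after strong antigen receptor signals, and MCL1 and BCL-2 keep resting and activated T cells alive.

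The study compared C57BL/6 cells of 2 genotypes, labelled WT and MSC KO, with 2 libraries of each. MSC stands for musculin, the product of Msc and a DNA-binding protein of the basic helix-loop-helix class. In both genotypes naive T cells had been sorted and cultured for 3 days on plates coated with antibodies to CD3 and CD28 (1 µg/ml), with TGF-beta at 2 ng/ml. The labels give no age or sex of the mice, do not say which part of Msc was targeted or in which cells, and do not say whether the libraries of a genotype came from separate animals or cultures, so that p-values rest on a spread that may be technical.

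The authors deposited 1 table for WT 1 with MSC KO 1 and another for WT 2 with MSC KO 2, and differences are therefore taken within a table. The tables hold no fragment totals and the low values formed no clear steps, so depth is unknown. Msc itself went against the labels, at 0.0243 and 0.0178 FPKM in WT 1 and WT 2 and at 0.331 and 0.939 FPKM in the libraries labelled MSC KO 1 and MSC KO 2. These values were all under 1 FPKM, so Msc was not among the genes tested. The authors' deposited test did not call Msc in the second table (p = 0.246, q = 0.999). In the first it lists the same p and q for Msc as for Hrk, a gene listed at 0 throughout. The missing call there may therefore mean that no test was run. Every direction below is given for the libraries as labelled. Foxp3, the defining Treg factor, was at 62.8 and 66.0 FPKM in WT and at 2.97 and 7.05 FPKM in the libraries labelled MSC KO. Of the 5 Treg markers, all tested, 3 were lower in both tables (Foxp3, Ikzf2 and Lrrc32), 1 was higher in both and 0 passed by limma, with 4 at an unadjusted p under 0.05. The higher one was Ctla4, an inhibitory receptor, at 112 and 120 FPKM in WT and at 217 and 188 FPKM in the libraries labelled MSC KO, while Il2ra, an IL-2 receptor chain, was higher in 1 table and lower in the other. All 6 T cell markers found in both tables were present, Cd4 at 166 to 209 FPKM and Cd3e at 133 to 155 FPKM. WT 1 and WT 2 lay closer together than the libraries labelled MSC KO, with a median absolute difference over genes of 0.07 against 0.17 on the log2(FPKM + 1) scale.

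The 10 members covered a wide range of levels. Bax had the highest value in all 4 libraries and Bcl2l11 the lowest, with Pmaip1 next to last in all 4. Bax stood 66.1 and 57.1 times above Bcl2l11 in WT 1 and WT 2, and 154 and 168 times above it in MSC KO 1 and MSC KO 2. Bcl2l1 and Mcl1 followed Bax in every library and Bak1 came after them. In WT, Bcl2l1 (79.5 and 79.9 FPKM) and Mcl1 (75.2 and 78.7 FPKM) did not separate by more than a few FPKM, and in the libraries labelled MSC KO their order differed between the libraries. Bcl2, Bbc3, Bad and Bid lay between 12.4 and 20.9 FPKM in all 4 libraries.

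**Figure D1:**
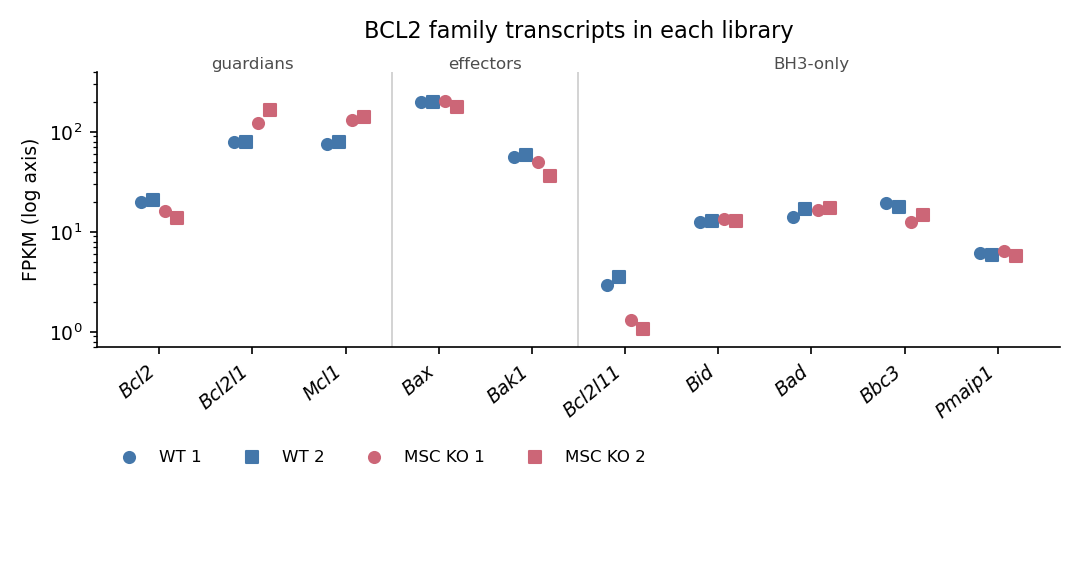
FPKM of the 10 members in each library on a log axis, with circles for the libraries numbered 1, squares for those numbered 2, blue for WT and red for MSC KO, 1 point per library. Bax is highest and Bcl2l11 lowest in every library, and the red points lie above the blue ones for Bcl2l1 and Mcl1 and below them for Bcl2l11.

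The largest shared differences among the members were higher Mcl1 and Bcl2l1, both guardians, and lower Bcl2l11, the gene of BIM, in the libraries labelled MSC KO. Mcl1 was 1.74 and 1.80 times its WT value in the first and second table, Bcl2l1 1.55 and 2.04 times, and Bcl2l11 0.445 and 0.301 times. Bcl2, Bbc3 and Bak1 were lower in both tables by smaller amounts, and Bax, Bid, Bad and Pmaip1 stayed within 20% of WT in each table. None of these differences passed an adjusted p of 0.05. Of the 10 members 0 were called in the limma fit blocked on table, with Benjamini-Hochberg adjustment over all genes, where 0.00943% of all genes tested were called, which is 1 gene. At an unadjusted p under 0.05 there were 5 members, 2 higher and 3 lower, beside 20.4% of all genes (9.2% higher, 11.2% lower). The authors' deposited test of 1 library against 1 called 0 members in either table. Of the symbols kept here that it tested, it called 0.655% in the first and 0.549% in the second. Its unadjusted p was under 0.05 for 1 member in the first table, beside 5.33% of those symbols, and for 3 in the second, beside 4.6%.

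By direction alone the members' counts lay near those of other genes. Higher in both tables were 3 of 10 members, beside 31.2% of all genes, and lower in both were 4 of 10, beside 37.5%. Values of the 2 genotypes did not overlap for 6 of 10 members, beside 59.1% of all genes. Of these, 2 lay higher, beside 26.6%, and 4 lower, beside 32.5%. A difference of 1.5-fold or more in both tables on the log2(FPKM + 1) scale was less frequent among all genes. Higher by that rule were 2 members, Bcl2l1 and Mcl1, beside 3.26% of all genes, and lower was 1, Bcl2l11, beside 2.45%. The median difference of the 10 members was -0.03, beside -0.02 over all genes, and the median size of the difference regardless of sign was 0.42 beside 0.17.

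**Figure D2:**
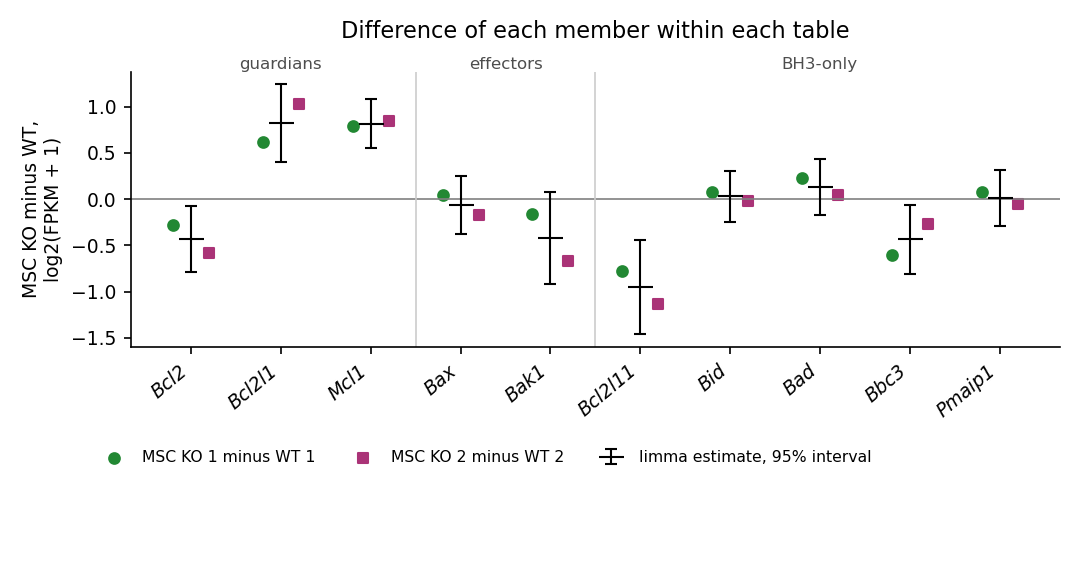
Difference of MSC KO from WT for each member on the log2(FPKM + 1) scale, with green circles for the first table, purple squares for the second, and black bars for the limma estimate with its 95% interval (not adjusted for the number of genes). The intervals of Bcl2, Bcl2l1, Mcl1, Bcl2l11 and Bbc3 leave out 0, and 0 members pass after adjustment over all genes.

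**Figure D3:**
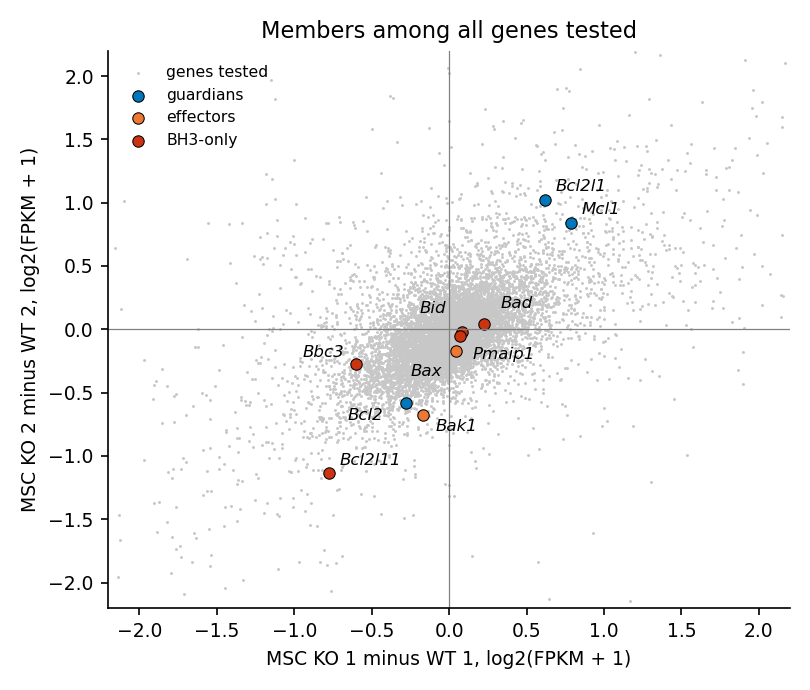
Difference in the first table (x axis) against the second (y axis), log2(FPKM + 1), for all genes tested (grey) and the members coloured by role; 203 genes lie beyond the plotted range of 2.2 either side of 0. Bcl2l1 and Mcl1 lie to the upper right of most genes, Bcl2l11 to the lower left, and Bid, Pmaip1, Bad and Bax near the origin.

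Among the guardians, Mcl1 (chromosome 3, mm9, 95462643 to 95467101) encodes a short-lived protein needed for T cell survival. It was at 75.2 and 78.7 FPKM in WT 1 and WT 2 and at 131 and 142 FPKM in MSC KO 1 and MSC KO 2. Both libraries labelled MSC KO were above both WT libraries, and the tables gave nearly the same difference, 0.79 and 0.84 on the log2(FPKM + 1) scale. The estimate was 0.82 ± 0.09 (SE, n = 2 libraries per genotype; 95% interval 0.55 to 1.08; adjusted p = 0.121, limma). A shared difference can be taken as the smaller of the differences in the 2 tables where their signs match, and as 0 otherwise. On that measure 96.7% of all genes tested were at or below Mcl1. In the authors' deposited tables Mcl1 had p = 0.0313 and 0.0117, with q = 0.58 and 0.343.

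Bcl2l1 (chromosome 2, mm9, 152606404 to 152657418 in the first table) gives rise to BCL-XL, a guardian induced by T cell co-stimulation. It was at 79.5 and 79.9 FPKM in WT 1 and WT 2, and at 123 and 163 FPKM in MSC KO 1 and MSC KO 2. The WT libraries were almost equal, both libraries labelled MSC KO were higher, and MSC KO 2 was the highest. The estimate was 0.82 ± 0.14 (95% interval 0.40 to 1.24, adjusted p = 0.152, limma). The tables do not separate the long isoform from the short, death-promoting one. In the authors' deposited tables Bcl2l1 had q = 0.999 in the first and 0.183 in the second.

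Bcl2 (chromosome 1, mm9, 108434756 to 108610867), the founding guardian, lay the other way. It was at 19.8 and 20.9 FPKM in WT 1 and WT 2 and at 16.1 and 13.6 FPKM in MSC KO 1 and MSC KO 2. Both libraries labelled MSC KO were below both WT libraries, by 0.28 and 0.58 on the log2(FPKM + 1) scale in the first and second table (estimate -0.43 ± 0.12, 95% interval -0.79 to -0.07, adjusted p = 0.213, limma). On the measure of shared difference 81.5% of all genes were at or below Bcl2.

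Of the effectors, Bax (chromosome 7, mm9, 52717065 to 52722268 in the first table) was at 196 and 201 FPKM in WT 1 and WT 2 and at 203 and 178 FPKM in MSC KO 1 and MSC KO 2. The genotypes overlapped, and the tables gave opposite signs (estimate -0.06 ± 0.10, 95% interval -0.38 to 0.25, adjusted p = 0.761, limma). Bak1 (chromosome 17, mm9, 27156757 to 27165571), the gene of the other effector, was at 55.5 and 58.4 FPKM in WT and at 49.4 and 36.3 FPKM in MSC KO 1 and MSC KO 2. Both libraries labelled MSC KO were lower, but MSC KO 1 by 0.17 and MSC KO 2 by 0.67 on the log2(FPKM + 1) scale (estimate -0.42 ± 0.16, 95% interval -0.91 to 0.07, adjusted p = 0.288, limma). The distance between the 2 libraries labelled MSC KO was thus larger than that of MSC KO 1 from WT.

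Among the BH3-only genes Bcl2l11 (chromosome 2, mm9, 127951774 to 127988283) had the lowest level and the largest difference. It was at 2.97 and 3.52 FPKM in WT 1 and WT 2 and at 1.32 and 1.06 FPKM in MSC KO 1 and MSC KO 2. Both libraries labelled MSC KO were below both WT libraries (estimate -0.95 ± 0.17, 95% interval -1.46 to -0.45, adjusted p = 0.152, limma), and at levels this low the log2(FPKM + 1) scale understates the ratio. On the measure of shared difference 96.5% of all genes were at or below it. In the authors' deposited tables it had q = 0.999 and 0.285.

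Bbc3 (chromosome 7, mm9, 16894932 to 16903683) encodes PUMA, a BH3-only protein induced by p53 and by loss of cytokines. It was at 19.4 and 17.9 FPKM in WT 1 and WT 2 and at 12.4 and 14.6 FPKM in MSC KO 1 and MSC KO 2. Both libraries labelled MSC KO were lower, here with the larger distance in the first table (-0.60 against -0.27; estimate -0.44 ± 0.12, 95% interval -0.81 to -0.06, adjusted p = 0.216, limma).

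Promoter sequence was looked at because Bcl2l11 and Bbc3 are textbook targets of FOXO factors, which act when growth signals are low. RefSeq (GRCm38.p6) windows of 250 bases before a start site were searched on both strands for GTAAACA (FOXO), TTCNNNGAA (STAT), TGANTCA (AP-1), CAGCTG (an E-box, the kind of site that basic helix-loop-helix factors such as musculin bind) and CACGTG (a MYC-type E-box). There were 15 windows for 9 members, and no match overlapped another. GTAAACA or its reverse complement was found before Bcl2l11 and Bbc3 and in no other of the 9 members, and in 3.54% of the 27025 genes with a window. The stretches that hold it are shown 5′ to 3′ on the plus strand, which is the strand of both genes, with the match in capitals.
Bcl2l11, chr2:128125788-128125847: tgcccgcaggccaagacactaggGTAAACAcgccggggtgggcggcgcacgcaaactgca
Bbc3, chr7:16310067-16310126: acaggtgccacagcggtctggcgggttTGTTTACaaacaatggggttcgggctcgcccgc
The match lies 227 to 221 bases before the first listed start of Bcl2l11, and 167 to 161 bases before the second listed start of Bbc3, where it reads on the opposite strand. CACGTG was found before Bax and Bbc3 (6.86% of all genes), and TTCNNNGAA, TGANTCA and CAGCTG in none of the 15 windows (8.13%, 7.82% and 14.7% of all genes). These are matches of letters, and binding was not measured. In annotated exons lay all 250 bases of the first and second Bcl2l1 windows and of the Bak1 window. So did 230 bases of the second Bad window and 29 of the Bid window. The shares over all genes were not adjusted for the number of windows per gene. Foxo1 was at 27.8 and 26.8 FPKM in WT and at 43.5 and 31.8 FPKM in the libraries labelled MSC KO (adjusted p = 0.236, limma), and Foxo3 at 7.30 and 7.94 FPKM and at 6.41 and 6.11 FPKM (adjusted p = 0.303).

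The other 3 BH3-only genes differed little. Bid (chromosome 6, mm9, 120843137 to 120866838), whose product links death receptors to mitochondria, was at 12.6 and 12.98 FPKM in WT and at 13.4 and 12.8 FPKM in the libraries labelled MSC KO. Pmaip1 (chromosome 18, mm9, 66618258 to 66625212), the gene of NOXA, which binds MCL1, was at 6.12 and 5.92 FPKM and at 6.49 and 5.68 FPKM. Bad (chromosome 19, mm9, 7012560 to 7026383 in the first table), whose product is held inactive by survival kinases, was at 14.0 and 16.8 FPKM and at 16.5 and 17.3 FPKM. For all 3 the genotypes overlapped. The 95% intervals of the differences were -0.24 to 0.30 for Bid (adjusted p = 0.875, limma), -0.29 to 0.31 for Pmaip1 (0.962) and -0.17 to 0.43 for Bad (0.509), so that differences of that size in either direction are not shut out by these data. In the GRCm38 annotation of GENCODE exons of 5 members share bases with another gene. Bid shares 628 bases with Bcl2l13 on the opposite strand, Bak1 614 with Ggnbp1, Bcl2 558 with D630008O14Rik and Bad 524 with Gpr137, all on the opposite strand, and Bax 192 with Gm45808 on the same strand. Whether strand was used in counting is not given in the sources used here, so part of the reads of these genes could belong to the neighbour.

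Levels were also summed over each role within a library. The guardians summed to 174 and 179.5 FPKM in WT 1 and WT 2 and to 269.6 and 319 FPKM in MSC KO 1 and MSC KO 2, which is 1.55 and 1.78 times WT in the 2 tables. The BH3-only genes summed to 55.0 and 57.1 FPKM in WT and to 50.1 and 51.5 FPKM in the libraries labelled MSC KO. The effectors summed to 252 and 259 FPKM, and to 253 and 214 FPKM. Transcript for guardians over that for BH3-only genes was 3.17 and 3.14 in WT and 5.38 and 6.19 in the libraries labelled MSC KO. Both ratios of the libraries labelled MSC KO lay above both of WT. A ratio within a library does not depend on how libraries were scaled, and with 2 libraries against 2 an exact permutation test cannot give a two-sided p under 0.333, so no test is given.

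The makeup of the guardians also differed. Bcl2 made up 11.3% and 11.6% of their summed FPKM in WT 1 and WT 2 and 5.99% and 4.27% in MSC KO 1 and MSC KO 2. Bcl2l1 over Bcl2 was 4.02 and 3.82 in WT and 7.61 and 11.98 in the libraries labelled MSC KO. Bcl2 over Bax, a classic index of the balance of survival and death, was 0.101 and 0.104 in WT and 0.0795 and 0.0767 in the libraries labelled MSC KO, lower in both. Bcl2 over Bcl2l11 went the opposite way, from 6.66 and 5.95 in WT to 12.2 and 12.9, since Bcl2l11 was lower by more than Bcl2. Mcl1 over Pmaip1, the gene of its BH3-only partner NOXA, was 12.3 and 13.3 in WT and 20.1 and 25.0 in the libraries labelled MSC KO. Among the BH3-only genes Bcl2l11 made up 5.404% and 6.16% of the summed FPKM in WT and 2.64% and 2.05% in the libraries labelled MSC KO. In bulk RNA of this kind, fewer cells of a type and less RNA per cell cannot be told apart, and neither protein levels nor survival were measured.

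**Figure D4:**
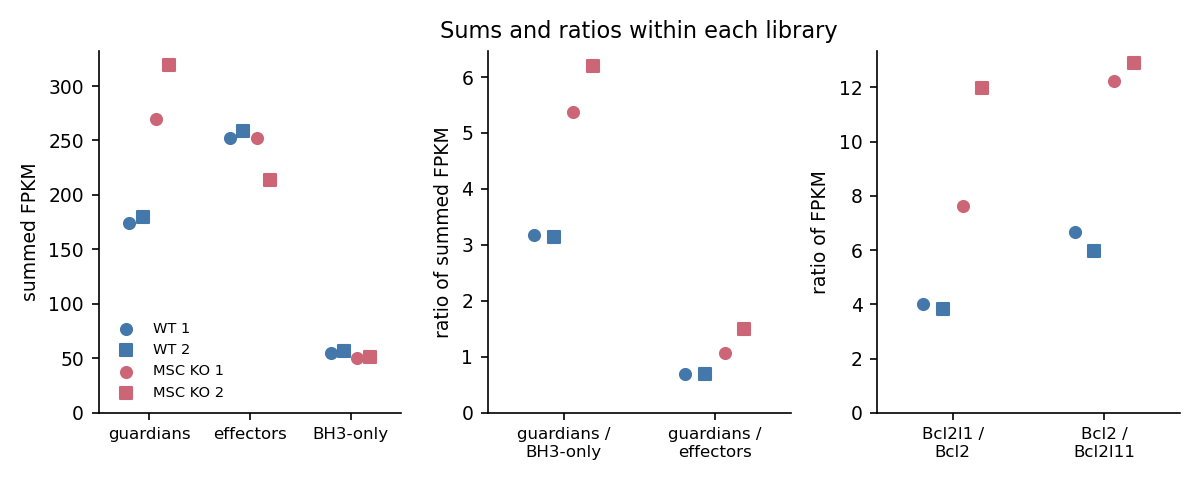
Summed FPKM by role (left), ratios of those sums (middle) and ratios of single genes (right) in each library, with circles for libraries numbered 1, squares for those numbered 2, blue for WT and red for MSC KO; all axes start at 0. Guardians over BH3-only genes lie at 3.17 and 3.14 in WT and at 5.38 and 6.19 in the libraries labelled MSC KO.

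The rest of the BCL2 family gave a mixed picture. For this list and those below, the shares over all genes tested were 31.2% higher and 37.5% lower in both tables. At an unadjusted p under 0.05 by limma the share was 20.4%, with 9.2% higher and 11.2% lower. Of 15 further relatives 11 were tested, and 0 passed by limma (2 at an unadjusted p under 0.05), with 5 higher and 1 lower in both tables and a median difference of 0.08. Bcl2l2, the gene of the guardian BCL-W, was at 7.21 and 7.06 FPKM in WT and at 9.47 and 9.72 FPKM in the libraries labelled MSC KO (0.38 ± 0.09, adjusted p = 0.188). The BH3-only gene Bik was at 2.68 and 2.87 FPKM and at 6.19 and 4.24 FPKM (0.70 ± 0.18, adjusted p = 0.198). Bcl2a1b, of the A1 guardians, was at 17.8 and 18.0 FPKM and at 19.6 and 26.6 FPKM. Its values are uncertain because the A1 genes are near-identical copies. The copies Bcl2a1c and Bcl2a1d were lower in the first table and higher in the second. The BH3-only gene Hrk and the guardian gene Bcl2l10 were listed at 0 in all 4 libraries.

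Caspase genes numbered 9, of which 7 were tested and 0 passed by limma. At an unadjusted p under 0.05 there were 4 lower and 0 higher, beside 11.2% and 9.2% of all genes. The tested genes held 3 that were higher and 4 that were lower in both tables, beside 31.2% and 37.5%. Their median difference was -0.30. The initiator genes Casp2 (19.99 and 21.9 FPKM in WT, 15.5 and 14.7 FPKM in the libraries labelled MSC KO; adjusted p = 0.182) and Casp8 (48.7 and 49.3 FPKM, 39.1 and 40.4 FPKM; adjusted p = 0.226) were lower in both. The 3 that were higher rested on MSC KO 1. Casp4, an inflammatory caspase gene, reached 22.9 FPKM in MSC KO 1, while MSC KO 2 (3.77 FPKM) lay near WT (2.83 and 2.90 FPKM). Casp6 (55.3 and 23.5 FPKM against 23.0 and 22.4 FPKM) and Casp1 (9.18 and 1.97 FPKM against 1.87 and 1.86 FPKM) had the same form, and were picked out, like Casp8, after their values were seen. Of 10 apoptosome and mitochondrial release genes 2 were higher and 4 lower in both tables (median -0.03, 0 passed, 1 at an unadjusted p under 0.05). That gene was Diablo, which encodes an antagonist of the inhibitors of apoptosis, at 36.5 and 35.3 FPKM in WT with 25.2 FPKM in both libraries labelled MSC KO (adjusted p = 0.152). Of the inhibitors of apoptosis 5 of 8 were tested and 0 passed (2 at an unadjusted p under 0.05; 1 higher and 2 lower in both tables; median -0.15). Birc2 was at 15.4 and 15.5 FPKM in WT, with 20.3 and 21.5 FPKM in the libraries labelled MSC KO. Birc5, which also serves cell division, was at 168 and 169.97 FPKM and at 143 and 122 FPKM.

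Of 11 death receptor pathway genes tested 0 passed by limma (4 at an unadjusted p under 0.05), 4 were higher and 5 lower in both tables, and the median was -0.05. Fasl, the ligand that kills through the receptor FAS, was at 6.55 and 6.48 FPKM in WT and at 16.4 and 33.1 FPKM in the libraries labelled MSC KO (1.70 ± 0.28, adjusted p = 0.152, limma). Tnfsf10, the gene of the ligand TRAIL, was at 18.5 and 19.3 FPKM and at 5.70 and 3.06 FPKM (-1.93 ± 0.23, adjusted p = 0.130). The authors' deposited table called both in the second comparison (q = 0.0143 for each) and neither in the first (q = 0.46 and 0.0721). Cflar, the gene of the caspase-8 inhibitor FLIP, was at 13.5 and 12.8 FPKM in WT and at 20.9 and 15.7 FPKM in the libraries labelled MSC KO. Fas itself was at 23.8 and 25.1 FPKM and at 21.3 and 21.7 FPKM (adjusted p = 0.358).

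Further lists held p53 and its targets, regulators of BH3-only genes, regulators of MCL1 and BIM stability, and survival signals. By limma 0 of their tested genes passed. Of 13 tested p53 genes 6 were higher and 4 lower in both tables (median 0.19; 0 higher and 2 lower at an unadjusted p under 0.05). The stress genes Trp53inp1 (52.99 and 51.8 FPKM in WT, 26.2 and 25.2 FPKM in the libraries labelled MSC KO; adjusted p = 0.117) and Sesn1 (20.5 and 21.4 FPKM, 5.24 and 8.92 FPKM; adjusted p = 0.130) were those 2. Of 8 tested regulators of BH3-only genes 3 were higher and 3 lower in both tables (median -0.07), and of 9 regulators of MCL1 and BIM stability 1 was higher and 3 lower (median -0.02), with 1 and 0 genes at an unadjusted p under 0.05. Of 11 survival signal genes 6 were higher and 1 lower in both tables (median 0.21), beside 31.2% and 37.5% of all genes. At an unadjusted p under 0.05 by limma 5 were higher, beside 9.2% of all genes. Il2, the T cell growth factor, was at 4.24 and 4.29 FPKM in WT and at 33.9 and 26.7 FPKM in the libraries labelled MSC KO (adjusted p = 0.0992). Stat5a, a transducer of interleukin-2 signals, was at 48.8 and 51.4 FPKM and at 103 and 77.9 FPKM, and the survival kinase gene Pim2 at 48.9 and 51.4 FPKM and at 84.7 and 107 FPKM (adjusted p = 0.154 and 0.130).

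**Figure D5:**
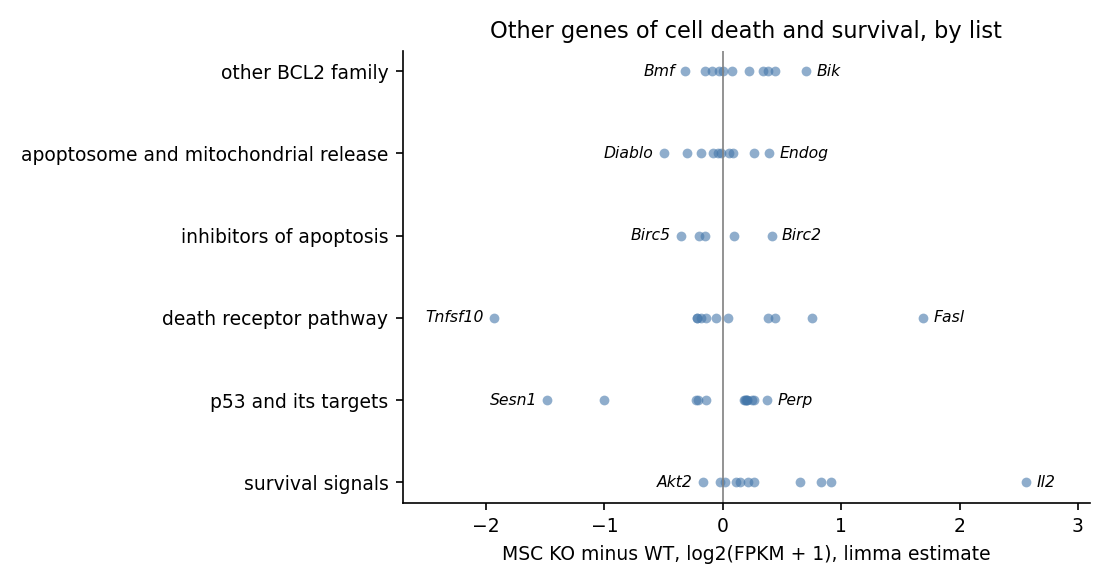
Limma estimates of the difference of MSC KO from WT, log2(FPKM + 1), 1 point per tested gene, for 6 lists of cell death and survival genes, with the lowest and highest gene of each list named. The points of most lists lie on both sides of 0, Tnfsf10 lies lowest and Il2 highest, and 0 of the genes plotted pass an adjusted p of 0.05.

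The genes whose pattern over the 4 libraries was most like that of the 3 members with the largest shared differences were found by Euclidean distance between log2(FPKM + 1) values centred on each gene's mean. Nearest to Mcl1 were Galnt11, AI504432 and Bhlhe40, a transcription factor gene of activated T cells (129 and 134 FPKM in WT, 224 and 234 FPKM in the libraries labelled MSC KO), at distances of 0.0431 to 0.0466. Nearest to Bcl2l1 were Gpr55, Nfkbib, which encodes an inhibitor of NF-kappaB (31.9 and 34.1 FPKM, 49.2 and 67.7 FPKM), and Efna2, at 0.0732 to 0.102. Near to Bcl2l11 were Slc14a1 and Wdfy1, at 0.0698 and 0.0752.

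Other values also differed between the libraries, not all of them with the genotype. Of 10 stress and handling genes 8 were tested, 6 were higher in both tables and 0 lower, 5 had an unadjusted p under 0.05, and their summed FPKM was 232 and 227 in WT and 343 and 309.9 in the libraries labelled MSC KO. Among them Atf3, an immediate stress factor, was at 6.83 and 6.79 FPKM in WT and at 31.5 and 20.6 FPKM in the libraries labelled MSC KO. Myeloid markers summed to 1.93 and 1.69 FPKM in WT and to 4.31 and 4.18 FPKM in the libraries labelled MSC KO, nearly all from Cd68, while the 5 others in the tables stayed under 1 FPKM in every library. B cell markers summed to 6.95 to 7.25 FPKM in WT and 5.04 to 6.02 FPKM in the libraries labelled MSC KO, with Cd79b as the main part and Ms4a1 and Pax5 under 1 FPKM in every library. The CD8 and NK markers summed to 11.3 to 11.7 FPKM in WT and to 9.18 and 19.8 FPKM in MSC KO 1 and MSC KO 2, with Ncr1 listed at 0 throughout. Mast cell and erythroid markers summed to 9.83 to 10.2 FPKM in WT and to 2.47 and 14.9 FPKM in MSC KO 1 and MSC KO 2, nearly all from Kit, with Cpa3 and Mcpt4 listed at 0. The part of stress genes and of cell makeup in the differences of the members was not tested.

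The calls on the members depended on which libraries set the spread. With no term for the table Mcl1 passed (adjusted p = 0.0438, limma), in a fit that called 1.44% of all genes. Without MSC KO 1, Bcl2, Bcl2l1, Mcl1, Bak1 and Bcl2l11 passed, and without MSC KO 2, Bcl2l1, Mcl1, Bcl2l11 and Bbc3 did, but these fits also had no term for the table, took their spread from the 2 close WT libraries alone, and called 21.7% and 25.2% of all genes.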

How the data were processed

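TopHat and the genome mm9 are named in the submitters' processing notes, while the sources used here do not give the annotation. The authors deposited FPKM values, 1 column per library, in tables with the layout of a Cuffdiff gene test, beside the authors' own p-value and q-value of each 1 against 1 test. The unit was read from that layout. Starts are written 1-based, since widths showed that the tables count from 0. Rows with no symbol were left out, and a repeated symbol was represented by its row of highest mean. The rows left out held 49.9% and 54.1% of the summed FPKM in WT 1 and MSC KO 1. In WT 2 and MSC KO 2 they held 52.2% and 53.2%.

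MSC KO was compared with WT on log2(FPKM + 1) with limma 3.58.1 (R 4.3.3). The fit was blocked on the table, since separate scaling of the tables cannot be told from the files, and used a trended prior, a mean of at least 1 FPKM, and Benjamini-Hochberg adjustment over all 10603 genes (threshold 0.05, two-sided). The block left 1 residual degree of freedom, beside 2.36 of the prior. Other steps used Python 3.11.15 and pandas 2.3.3. The fit was also run on simulated data, with spread drawn from its own prior and no difference between the tables. Such data cannot show how well the fit suits the real libraries.

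Members and gene lists were chosen with earlier results of these data known. Named besides the members were up to 4 genes per list with the largest shared difference, and the 3 genes nearest to each of 3 members. Some genes that this rule takes are not reported here. Further list genes were picked after their values were seen.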

Additional observations from a re-analysis of the deposited data

How the results depend on the processing

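Over 11 other settings, Mcl1, Bcl2l1, Bcl2l11, Bcl2, Bbc3, Bak1 and Bad kept their direction in all, but the size of Bad and Bak1 did not hold. Bad went from 0.13 to 0.0073 without WT 1 and to 0.26 without WT 2, and Bak1 from -0.42 to -0.20 without MSC KO 2 and to -0.64 without MSC KO 1. Pmaip1 turned to -0.025 when libraries were rescaled to one common sum and to -0.0034 with quantile normalization. Leaving out 1 library at a time it ranged from -0.071 (without MSC KO 1) to 0.093 (without MSC KO 2), with -0.0093 without WT 2. Bid turned to -0.0076 with rescaling, and Bax ranged from -0.16 (without MSC KO 1) to 0.032 (without MSC KO 2). Pmaip1 and Bid lay close to 0 in each of these fits, while Bax reached -0.16 without MSC KO 1. The estimate of Mcl1 ranged from 0.76 to 0.88 (adjusted p 0.013 to 0.582), that of Bcl2l1 from 0.62 to 1.03 (0.0118 to 0.642) and that of Bcl2l11 from -1.38, with a pseudocount of 0.1, to -0.86 (0.0299 to 0.606).

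The fit with no replicate block called 153 genes and 1 member, Mcl1, where the fit with the block called 1 gene and 0 members. Libraries that share a number deviated together only weakly (correlation over genes 0.06), so the block rests on the tables and not on a shown pairing. All genes called numbered 7 with rescaling, 26 with small RNA symbols left out, and 0 with no filter on low values, with quantile normalization and with a prior without trend. With 3 libraries the block leaves no residual degree of freedom, so each fit that leaves out 1 library also drops the block and is to be read against the 153 genes and 1 member without it. These fits gave 0 to 2672 called genes and 0 to 5 called members, and in them the lone sample is assumed to vary like the other group. Depth is unknown, so no counting error can be given, and Bcl2l11 at 1.06 to 3.52 FPKM is the member it would limit most.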
